A study of Mus musculus with 15 samples.

Results

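Newborn mouse eyes labelled Egr1 knockout were compared with newborn wild-type eyes. The libraries were chosen by their titles, and they were 4 of the 15 samples of the series, 2 labelled Egr1KO and 2 labelled WT. Whole eyes with their eyelids were taken from BALB/c mice. The allele came from Egr1-/- C57BL/6 mice (Taconic). They were crossed onto BALB/c over 5 generations in one round and 4 in another, and the labels do not tie the newborn eyes to either. For the libraries labelled WT the labels name no engineered allele and no treatment. The labels name no animals for the newborn libraries, so p-values measure the spread between libraries. The adult libraries of the series (1 wild type and 2 labelled knockout) entered the same fit and helped to estimate that spread.

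Egr1 is a zinc finger transcription factor that cells switch on within minutes of growth factor signals, stretch or injury. In the mouse the eyelids grow over the cornea before birth, fuse, and stay shut until the pups open their eyes. Epidermal growth factor and activin signals drive the migration of the eyelid epithelium in that closure. Beneath the lids of a newborn, the retina is still dividing and the first rods are maturing, while the lens fibres are full of crystallins.

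Egr1 itself (chromosome 18) went against the labels. It stood at 53.4 and 71.1 CPM in the wild types and at 248 and 317 CPM in the labelled knockouts, CPM being the usual read count scaled to a common library total after TMM adjustment. Both labelled knockouts lay above both wild types, by 2.18 ± 0.27 (log2 fold change ± SE, 4.54-fold, adjusted p = 0.00341, edgeR). In the adult libraries of the same fit Egr1 was also higher in labelled knockouts, by 2.76 on the log2 scale, against 1 wild type. The counts cover the whole transcript and do not show whether the protein was lost. The knockouts are therefore called labelled knockouts throughout, and directions below rest on those labels. Of the other Egr genes, Egr2, needed for myelin in Schwann cells, rose from 3.53 and 4.16 to 14.9 and 20.1 CPM (2.19 ± 0.54). That call was lost in most fits with 1 newborn library left out. Egr3 (0.77 ± 0.63), Egr4 (-0.08 ± 0.76) and the corepressors Nab1 (0.50 ± 0.21) and Nab2 (0.76 ± 0.29) did not pass.

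Reads in transcripts came to 20334849 and 25827610 in the wild types and to 32186113 and 30154706 in the labelled knockouts. Of 17592 genes tested, 2576 (14.6%) were higher and 1650 (9.38%) lower in labelled knockouts at an adjusted p under 0.05, which makes 24.0% in all. Of all genes tested, 33.1% had both labelled knockouts above both wild types and 34.1% had both below. All 2576 genes called higher and all 1650 called lower were among them, so a lack of overlap adds nothing to a call. The median log2 fold change of all genes was -0.07, and 0.08 with the authors' library totals in place of TMM, under which 2751 genes were higher and 1084 lower. Wild-type replicate 1 stood apart: 75.6% of the authors' total lay in its transcripts against 100.1% to 104.8% in the others, and it had reads in 23976 transcripts against 22634 to 23095. Without it, 0 genes passed by edgeR (smallest adjusted p 0.0517, with 4735 at an unadjusted p under 0.05), so that every call below is lost in that fit, while DESeq2 called 1768 higher and 1150 lower. Labelled-knockout replicate 1 nearly lacked lens RNA. Without it, 1332 genes were higher and 757 lower (edgeR), and counts of this kind are given below as counts without replicate 1. Without wild-type replicate 2, 528 were higher and 200 lower. Calls that held in the fits without wild-type replicate 2 and without either labelled knockout came to 504 higher and 180 lower.

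The genes with the widest empty gap between the groups were mostly epithelial on the rising side and neural on the falling side. Krt13, a keratin of moist stratified epithelia such as the conjunctiva, went from 26.3 and 28.9 CPM in the wild types to 1605 and 853 CPM in the labelled knockouts (5.48 ± 0.60). Prss27, a membrane serine protease of stratified squamous epithelia, went from 3.09 and 2.55 to 125 and 78.1 CPM (5.17 ± 0.35). In these genes each labelled knockout was far above both wild types. Sprr1b, a cornified envelope precursor of stressed epithelium, rested on 2 reads in each wild type (0.110 and 0.100 CPM) against 11.6 and 24.1 CPM (7.33 ± 0.61). The adhesion molecule Ceacam1 went from 8.04 and 9.22 to 136 and 122 CPM (3.90 ± 0.26), and osteopontin (Spp1) from 5.84 and 6.21 to 85.3 and 94.9 CPM (3.90 ± 0.90). The other genes of this kind were Psca, Clca4, Ppbp, Krt6b, Ltf, Krt6a, Spink5, Nccrp1 and Dsg3. Psca and Nccrp1 were each over 3 times as high in labelled-knockout replicate 1 as in replicate 2.

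On the falling side, Neurog2, a proneural factor of dividing retinal precursors, had 126 and 138 CPM in the wild types and 24.0 and 23.1 CPM in the labelled knockouts (-2.49 ± 0.17, adjusted p = 0.0022). Stmn3, a neuronal microtubule regulator, went from 114 and 112 to 15.6 and 24.3 CPM (-2.50 ± 0.24). Scg5, a chaperone of neuroendocrine secretory granules, went from 66.2 and 68.4 to 7.43 and 14.2 CPM (-2.64 ± 0.30). Opticin (Optc), secreted into the vitreous by the ciliary epithelium, went from 47.3 and 59.2 to 5.05 and 1.92 CPM (-3.92 ± 0.60). Both labelled knockouts lay below both wild types in each of them, as in every gene called lower. The others were Pde6g, Pdc, Rcvrn, Crhbp, Samd7, Rom1, Tagln3, Nr2e3, Ttc9b and Nrl, of which Rom1, Pde6g, Pdc, Rcvrn, Nr2e3 and Nrl serve rods. In those 6 rod genes labelled-knockout replicate 1 was the lower of the 2, and in Optc and Crhbp it was the higher.

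**Figure D1:**
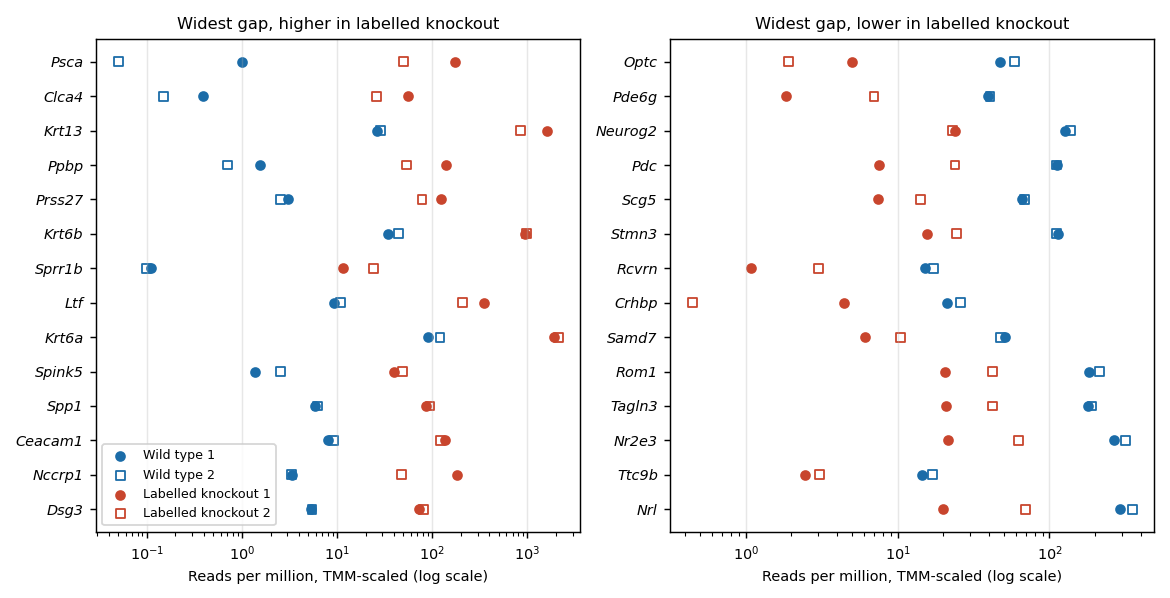
CPM in each newborn library (log scale) for the rising and falling genes named above for the widest gap between groups, filled circles for replicate 1 and open squares for replicate 2. In every gene shown both labelled-knockout libraries (red) lie on one side of both wild-type libraries (blue), as the choice of genes required.

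Promoters are shown for the 2 genes of these lists whose first-listed window holds a match to a motif searched, Krt13, a keratin of the ocular surface, and Samd7, a photoreceptor gene. RefSeq windows (GRCm38.p6, 300 bases that span the start) were found for 7 of the 15 rising and 12 of the 15 falling genes. Searched on both strands were the Egr sites GCGTGGGCG and GCGGGGGCG, the AP-1 sites TGACTCA and TGAGTCA, and TAATCC, the core read by Crx and Otx2. No Egr site lay in the first-listed window of any of these genes, against 3.47% of all 32851 windows. An AP-1 site lay in 5.2% of all windows and in none of these, and TAATCC lay in 7.06% of all windows, in 1 of 7 rising genes (Krt13) and in 1 of 12 falling genes (Samd7). Krt13 has a second listed start, whose window holds 2 AP-1 matches. Capitals mark the matches, and a match is only a match of letters.
Krt13, chr11:100121517-100121816, minus strand: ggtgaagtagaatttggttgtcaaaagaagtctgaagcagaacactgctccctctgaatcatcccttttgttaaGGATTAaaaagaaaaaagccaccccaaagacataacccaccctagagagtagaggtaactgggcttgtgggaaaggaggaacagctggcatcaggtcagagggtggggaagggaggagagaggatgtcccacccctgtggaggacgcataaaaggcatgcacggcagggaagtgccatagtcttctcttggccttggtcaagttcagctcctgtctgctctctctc
Krt13, second start, chr11:100120528-100120827, minus strand: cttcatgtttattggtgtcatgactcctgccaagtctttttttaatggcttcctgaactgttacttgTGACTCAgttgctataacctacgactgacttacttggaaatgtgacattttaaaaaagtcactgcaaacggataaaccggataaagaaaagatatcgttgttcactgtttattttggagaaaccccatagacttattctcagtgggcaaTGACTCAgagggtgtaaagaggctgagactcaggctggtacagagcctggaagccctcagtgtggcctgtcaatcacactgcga
Samd7, chr3:30746043-30746342, plus strand: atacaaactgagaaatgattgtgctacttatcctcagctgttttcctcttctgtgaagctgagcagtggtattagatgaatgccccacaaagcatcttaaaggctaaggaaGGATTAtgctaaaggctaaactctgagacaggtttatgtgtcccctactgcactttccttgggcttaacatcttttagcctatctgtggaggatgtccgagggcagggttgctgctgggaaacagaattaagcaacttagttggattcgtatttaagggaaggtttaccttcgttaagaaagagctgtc

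Genes of basal epidermis and the corneal limbus rose as a block. All 13 tested members rose (11 without replicate 1), with a median log2 fold change of 3.04 beside -0.07 over all genes. Krt5, a keratin of dividing basal cells, had 385 and 680 CPM in the wild types and 4465 and 4305 CPM in the labelled knockouts (3.04 ± 0.59), and its partner Krt14 went from 119 and 261 to 1735 and 2934 CPM (3.62 ± 0.54). The groups were far apart in both, and the wild types differed from each other about as 1 to 2. Trp63, the master regulator of stratified epithelium, went from 12.7 and 21.0 to 88.4 and 71.6 CPM (2.24 ± 0.33). Krt15, a keratin of limbal and hair bulge cells, went from 582 and 709 to 3897 and 1737 CPM (2.13 ± 0.51). In bulk RNA, more cells of a type and more RNA per cell cannot be told apart, here and in every group below.

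Adhesion complexes of epithelium followed. All 12 genes of the hemidesmosome and its laminin rose (10 without replicate 1, median 2.19), among them the integrin chain Itgb4 (3.45 ± 0.30), Lamb3 (3.81 ± 0.27) and Lama3 (3.60 ± 0.28). Itgb4 was at 21.3 and 29.6 CPM in wild types and at 308 and 248 CPM in labelled knockouts. Of 17 desmosome genes 12 rose (11 without replicate 1, median 2.37), and the cadherin Dsc2 went from 23.5 and 28.1 to 244 and 238 CPM (3.23 ± 0.33). Desmoglein 3 (Dsg3) rose by 3.82 ± 0.32 and the envelope linker Evpl by 3.33 ± 0.49. The members that did not pass included Dsg4 of hair (-2.44 ± 0.82), Dsc1 of upper epidermis (1.27 ± 0.94) and Pkp2 (0.12 ± 0.21). Of 22 tight junction and skin barrier genes 11 rose and 1 fell (10 and 1 without replicate 1). Cldn4, a claudin that seals surface epithelium, went from 32.2 and 41.9 to 431 and 326 CPM (3.35 ± 0.32), with Cldn3 at 2.95 ± 0.25 and Cldn7 at 3.26 ± 0.32. The one that fell was Elovl4, which makes very long fatty acids in both photoreceptors and skin (-1.65 ± 0.21).

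Wound and stress keratins rose in 5 of 6 members (4 without replicate 1, median 3.72). Krt6a had 89.6 and 121 CPM in wild types and 1897 and 2110 CPM in labelled knockouts (4.25 ± 0.45), and Krt16 had 14.9 and 29.9 against 246 and 613 CPM (4.26 ± 0.54). Both groups were well separated. Reads of Krt6a and Krt6b may have been shared, because the genes are near-identical. The hair companion-layer keratin Krt75 did not pass (0.40 ± 0.39). Of 13 small proline-rich genes 6 rose, and the same number did without replicate 1. Sprr3 rose by 5.82 ± 0.90, Sprr1a by 2.61 ± 0.58 and Sprr2a by 5.45 ± 0.76, with the caution that Sprr2 genes are near-identical copies.

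Conjunctival and mucosal genes rose in 12 of 13 members (9 without replicate 1, median 3.04). Krt4, the partner of Krt13, had 69.2 and 68.2 CPM in wild types and 1702 and 811 CPM in labelled knockouts (4.19 ± 0.53). Krt19 went from 92.4 and 103 to 764 and 431 CPM (2.61 ± 0.33), and the simple epithelial keratin Krt8 from 69.9 and 79.5 to 397 and 356 CPM (2.33 ± 0.19). Labelled-knockout replicate 1 was the higher in these 3 keratins. Genes of the lacrimal and other exocrine glands rose in 6 of 13 members (4 without replicate 1, median 2.87). Lactoferrin (Ltf) went from 9.31 and 10.8 to 350 and 209 CPM (4.80 ± 0.36), and the immunoglobulin transporter Pigr from 0.661 and 0.301 to 8.82 and 4.86 CPM (3.84 ± 0.44). Wfdc2 rose by 2.67 ± 0.48 and the water channel Aqp5 by 2.87 ± 0.70. The others that passed were Lyz1 and Spink5. Aqp5 is also on the conjunctival list and Ltf on that of neutrophils. The members that did not pass were Lyz2 (2.23 ± 0.67), Lcn2 (3.72 ± 1.24), Pip (3.59 ± 1.93), Lcn11 (4.31 ± 3.62), Bhlha15 (1.87 ± 0.80), Scgb1a1 (0.22 ± 1.10) and Wfdc12 (0.27 ± 1.25). A rise of the lacrimal gland itself was not tested.

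The 2 labelled-knockout libraries did not match in the lens and in the outer epidermis. The 26 lens fibre genes took 15.9% and 14.4% of reads in wild types, 12.0% in labelled-knockout replicate 2 and 0.133% in replicate 1. Alpha-crystallin (Cryaa), a chaperone that keeps the lens clear, had 42006 and 46950 CPM in wild types, 289.2 CPM in labelled-knockout replicate 1 and 43146 CPM in replicate 2. The gamma-crystallin Crygf, subject to shared reads with its close copies, had 4639, 4698, 16.7 and 4185 CPM in the same order. The lens filament protein Bfsp1 had 1767, 2092, 12.2 and 2208 CPM, and the lens water channel Mip had 2135, 2423, 11.3 and 1771 CPM. Replicate 2 stood close to the wild types in these genes and replicate 1 did not. None of the 26 passed the test, and the median over them was -6.61 in replicate 1 and -0.28 in replicate 2 (log2 ratio to the wild-type mean, each with 0.5 CPM added). Regulators of lens development split likewise, with Foxe3 of the lens epithelium at 45.6 and 68.8 CPM in wild types, 0.231 CPM in replicate 1 and 44.1 CPM in replicate 2. Sox1 stood at 64.1, 76.1, 3.50 and 91.5 CPM.

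Outer epidermal genes split the other way. Loricrin (Lor), the main protein of the cornified envelope, had 11.4 and 38.1 CPM in wild types, 440 CPM in labelled-knockout replicate 1 and 4.01 CPM in replicate 2. Krt10, a keratin of suprabasal epidermis, had 41.6 and 241 CPM in wild types, 1050 CPM in replicate 1 and 108 CPM in replicate 2. Repetin (Rptn) had 3.14, 1.40, 55.2 and 0.535 CPM and caspase 14 (Casp14) 1.82, 3.16, 35.7 and 1.69 CPM in that order. In these 4 genes replicate 1 was the highest of the libraries, and replicate 2 was below 1 or both wild types. Of 15 cornified genes 4 rose (Krtdap, Cnfn, Sbsn and Asprv1), and the list's median was 2.81 in replicate 1 and -0.45 in replicate 2. Without replicate 1 the fitted median was -0.56, with 3 higher and 1 lower, so that its direction rests on that library. Also higher in replicate 1 than in replicate 2 were the mucin Muc20 (59.8 against 7.71 CPM) and the paralogs Cyp2a4 (33.7 against 3.56 CPM) and Cyp2a5 (130 against 16.7 CPM). At 1 RPKM or more, 154 genes lay over 4-fold apart between the labelled knockouts and 61 between the wild types.

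**Figure D2:**
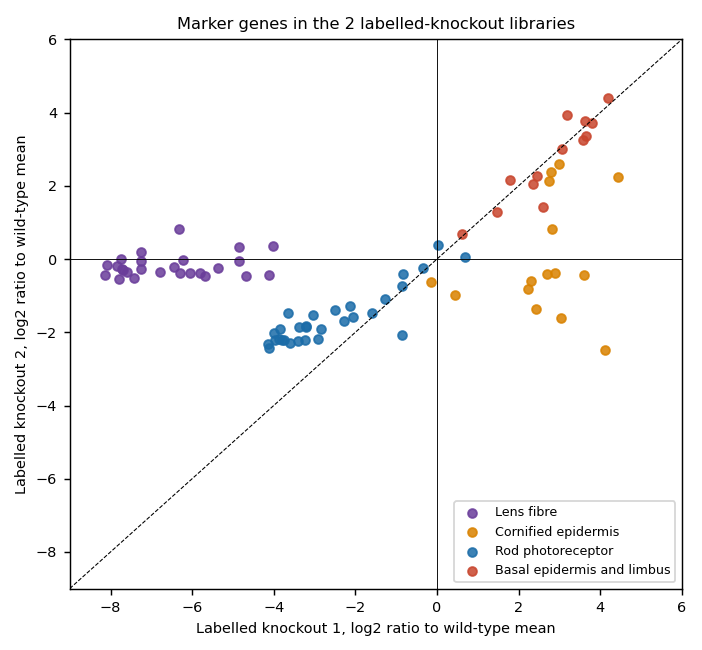
Each point is a gene of 1 of 4 marker lists, with its log2 ratio to the wild-type mean (0.5 CPM added) in labelled-knockout replicate 1 (horizontal) and replicate 2 (vertical); the dashed line marks equal values. Basal epidermis genes lie near the line, and most rod genes lie above it, lower in replicate 1 (medians -3.13 and -1.85). Lens fibre genes sit far to the left at about 0 on the vertical axis (medians -6.61 and -0.28). Most cornified genes lie to the right and below the line.

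Signals known from eyelid closure and wound repair were higher. Of 16 genes of epidermal growth factor signalling 13 rose (10 without replicate 1, median 1.35). Among receptors, Erbb3 went from 10.2 and 11.9 to 87.2 and 69.3 CPM (2.82 ± 0.27) and Egfr from 9.92 and 14.5 to 57.5 and 44.1 CPM (2.06 ± 0.24). Erbb2 rose by 1.72 ± 0.24, and Erbb4 did not pass (-0.24 ± 0.42). Among ligands, epiregulin (Ereg) had 0.827 and 0.701 CPM in wild types and 3.81 and 6.24 CPM in labelled knockouts (2.71 ± 0.33), and amphiregulin (Areg) 0.386 and 0.351 against 3.70 and 8.91 CPM (4.07 ± 0.53). Tgfa rose by 1.37 ± 0.26 and Hbegf by 1.20 ± 0.27, while Egf itself (0.31 ± 0.46) and Btc (0.94 ± 0.41) did not pass. The feedback inhibitor Errfi1 rose by 1.55 ± 0.16. Of 20 feedback regulators of the ERK kinases 6 rose (5 without replicate 1), with Phlda1 at 2.29 ± 0.26, Spry1 at 1.10 ± 0.18 and Dusp1 at 1.03 ± 0.19.

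Of 24 activin and TGF-beta genes 12 rose and 1 fell (6 and 0 without replicate 1). The activin subunit Inhba had 2.42 and 2.81 CPM in wild types and 20.6 and 26.0 CPM in labelled knockouts (3.15 ± 0.27). Its antagonist follistatin (Fst) went from 6.39 and 9.17 to 25.5 and 29.9 CPM (1.83 ± 0.24), the matrix protein Tgfbi from 35.4 and 57.1 to 483 and 260 CPM (3.01 ± 0.50), and Tgfb1 rose by 1.66 ± 0.24. Ligand and antagonist were thus both higher in both labelled knockouts. The gene that fell was the signal transducer Smad2 (-0.64 ± 0.16). Of 29 immediate-early genes other than the Egr family 21 rose and 1 fell (13 and 1 without replicate 1). Fos had 7.11 and 6.21 CPM in wild types and 29.3 and 45.2 CPM in labelled knockouts (2.48 ± 0.25), and Myc had 16.8 and 19.9 against 63.1 and 63.2 CPM (1.78 ± 0.17). Junb rose by 2.44 ± 0.23 and Ier3 by 1.91 ± 0.17. The growth inhibitor Btg2, abundant in newborn neurons, fell by 1.43 (SE 0.24). Of 39 genes listed for eyelid closure, 20 rose and 2 fell (13 and 0 without replicate 1), those 2 being Shh (-1.71 ± 0.40) and Pax6 (-0.74 ± 0.20). Foxc1 went from 34.9 and 53.2 to 290 and 205 CPM (2.49 ± 0.29) and Osr2 from 14.8 and 20.7 to 149 and 98.4 CPM (2.80 ± 0.28), both being factors of the eyelid mesenchyme.

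Inflammatory genes rose in several families at once. In the interleukin 1 family 10 of 16 rose (11 without replicate 1). The antagonist Il1rn had 2.20 and 2.05 CPM in wild types and 19.1 and 27.9 CPM in labelled knockouts (3.46 ± 0.25), the alarmin Il33 had 7.27 and 6.21 against 37.9 and 32.5 CPM (2.38 ± 0.23), and the receptor Il1rl2 rose by 2.53 ± 0.29. Both labelled knockouts were above both wild types in each, as in every gene called higher. Of 20 tumour necrosis factor and NF-kB genes 15 rose (13 without replicate 1, median 1.56). Nfkbiz, an NF-kB cofactor of epithelium, had 3.69 and 3.01 CPM against 21.8 CPM in both labelled knockouts (2.70 ± 0.18), and Birc3 had 4.57 and 4.61 against 19.4 and 16.1 CPM (1.95 ± 0.20). Of 19 CXC chemokines and receptors 11 rose and of 22 CC ones 7 rose (7 and 4 without replicate 1). Cxcl5, which draws neutrophils, had 0.220 and 0.100 CPM against 7.32 and 15.5 CPM (6.12 ± 0.73). Its wild-type values rest on few reads, as those of Sprr1b do. Ccl2, which draws monocytes, had 0.551 CPM in both wild types against 5.62 and 6.64 CPM (3.46 ± 0.79). Of 19 interleukin 6-type genes 10 rose (7 without replicate 1), with Il24 at 5.91 ± 0.68, Bcl3 at 2.96 ± 0.34 and Stat3 at 1.58 ± 0.30.

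Interferon-responsive genes rose in 19 of 31 members (12 without replicate 1, median 1.67). Irf7 went from 3.53 and 4.06 to 37.8 and 22.0 CPM (2.98 ± 0.36) and Ifit1 from 1.21 and 0.902 to 8.55 and 5.88 CPM (2.77 ± 0.31). Among matrix proteases and the urokinase system 15 of 21 rose (11 without replicate 1, median 1.99). Serpinb2, an inhibitor of urokinase, had 0.276 and 0.200 CPM in wild types, again from few reads, and 5.78 and 7.17 CPM in labelled knockouts (4.74 ± 0.32). The urokinase receptor Plaur had 2.76 and 3.51 against 26.5 and 27.5 CPM (3.10 ± 0.28). Mmp3 rose by 4.67 ± 0.59 and Mmp9 by 4.28 ± 0.52. Of 17 complement and acute-phase genes 8 rose (5 without replicate 1), led by C1s (6.61 and 7.56 against 45.1 and 37.8 CPM, 2.55 ± 0.22).

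Markers of leukocytes were uneven. Of 20 neutrophil genes 10 rose (8 without replicate 1, median 2.86), and S100a9 had 0.771 and 1.10 CPM in wild types and 17.4 and 30.0 CPM in labelled knockouts (4.64 ± 0.37). Granule enzymes made in immature neutrophils stayed low in every library, with Mpo at 0.276 and 0.351 against 1.50 and 0.356 CPM and Ctsg at 0.496 and 0.351 against 0.655 and 0.356 CPM. S100a9, Ltf and Mmp9 are also made by stressed or glandular epithelium. Of 9 mast cell genes 6 rose (5 without replicate 1, median 1.93). Tryptase Tpsb2 went from 30.1 and 35.0 to 178 and 149 CPM (2.33 ± 0.35), the carboxypeptidase Cpa3 from 6.56 and 7.16 to 28.2 and 26.0 CPM (1.98 ± 0.30) and the histamine enzyme Hdc from 2.76 and 2.05 to 12.5 and 16.0 CPM (2.57 ± 0.33). The 2 labelled knockouts were close to each other in these 3 genes. Of 17 macrophage genes 4 rose (1 without replicate 1), with Cd14 from 3.80 and 2.70 to 48.4 and 80.5 CPM (4.31 ± 0.40), and the receptor Csf1r did not pass (1.37 ± 0.41, adjusted p = 0.0503). None of 14 lymphocyte genes passed. Their summed level was 40.1 and 9.1 CPM in wild types and 33.6 and 18.3 CPM in labelled knockouts, and wild-type replicate 1 was the highest.

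Genes of connective tissue were mostly higher in labelled knockouts. Bulk RNA of whole eyes with eyelids does not show which tissue their reads came from. Of 25 fibroblast and periocular mesenchyme genes 19 rose and 1, the neural crest factor Tcfap2b, fell (15 and 0 without replicate 1, median 1.74). The mesenchymal factor Osr1 went from 5.68 and 9.77 to 66.7 and 48.5 CPM (2.90 ± 0.34), and the growth factor receptor Pdgfrb from 45.0 and 59.7 to 188 and 161 CPM (1.74 ± 0.21). The major collagens were higher by similar amounts but did not pass, as Col1a1 had 2317 and 3497 CPM in wild types and 11077 and 6248 CPM in labelled knockouts (1.58 ± 0.53, adjusted p = 0.0705). Elastin (Eln), the largest rise in CPM among called genes, went from 853 and 1579 to 6844 and 3815 CPM (2.13 ± 0.60). The growth factor Igf2 went from 831 and 1139 to 3550 and 3813 CPM (1.90 ± 0.36), Dlk1 of immature mesenchyme and muscle from 223 and 367 to 1768 and 1483 CPM (2.46 ± 0.33), and Igfbp5 rose by 1.57 ± 0.41. Igf2 and Dlk1 are imprinted genes of fetal tissue, and in both the labelled knockouts were close to each other.

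Vessel, nerve sheath and muscle genes were higher too. Of 20 endothelial and pericyte genes 15 rose (6 without replicate 1, median 1.33), with Pecam1 from 37.2 and 46.6 to 129 and 110 CPM (1.51 ± 0.25) and the pericyte proteoglycan Cspg4 from 22.6 and 23.1 to 69.9 and 55.2 CPM (1.45 ± 0.23). Kdr, which the neural retina also expresses, did not pass (-0.67 ± 0.45). Of 11 Schwann cell and oligodendrocyte genes 6 rose (5 without replicate 1, median 1.68). Sox10, a factor of neural crest and glia, went from 28.9 and 38.2 to 245 and 213 CPM (2.77 ± 0.32). Of 32 skeletal muscle genes 12 rose (4 without replicate 1, median 1.24). Both labelled knockouts lay above both wild types in 31 of the 32, beside 33.1% of all genes tested. Myog, which commits myoblasts to fuse, had 12.1 and 19.2 CPM against 42.2 and 52.3 CPM (1.59 ± 0.26), and embryonic myosin (Myh3) 71.0 and 84.8 against 259 and 467 CPM (2.22 ± 0.56). The exception, Chrng of the fetal acetylcholine receptor, had 47.4 and 56.7 CPM in wild types, 12.1 CPM in labelled-knockout replicate 1 and 78.1 CPM in replicate 2.

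**Figure D3:**
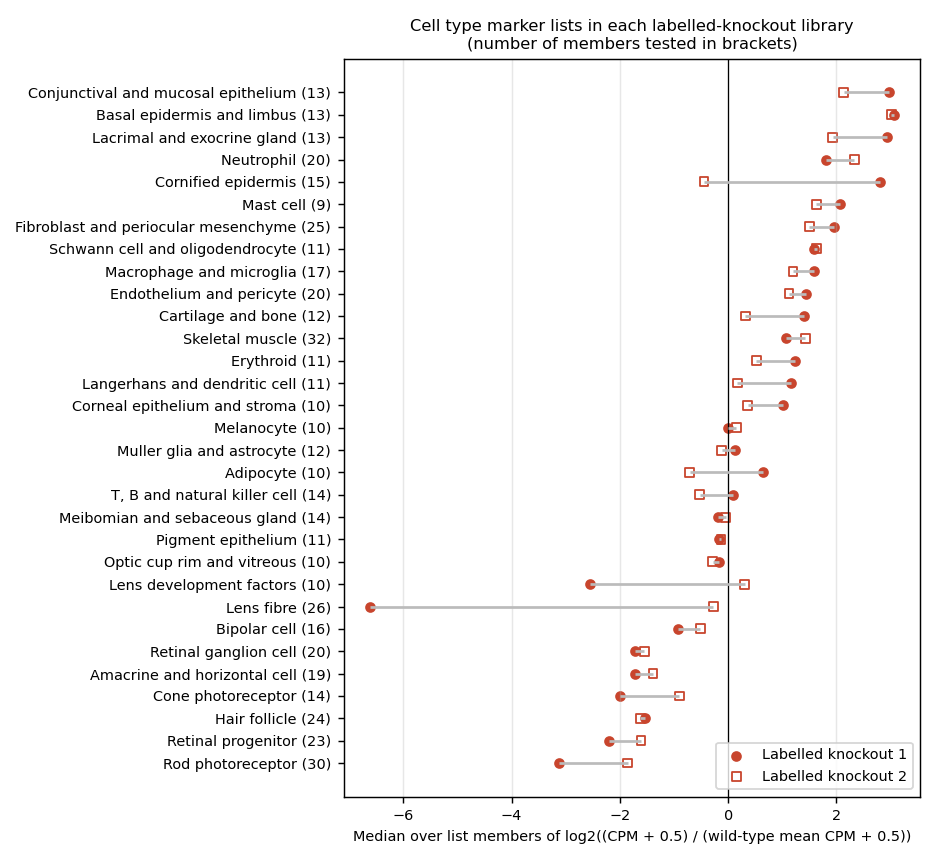
Median log2 ratio to the wild-type mean over each cell type list, filled circles for labelled-knockout replicate 1 and open squares for replicate 2, with the number of tested genes in brackets. The basal, conjunctival, lacrimal, fibroblast, endothelial, mast cell, neutrophil and macrophage lists lie right of 0 in both libraries, and the rod, cone, bipolar, amacrine, ganglion cell and progenitor lists left of it. The libraries lie far apart in the lens fibre (-6.61 and -0.28), cornified (2.81 and -0.45) and lens development (-2.55 and 0.30) lists.

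Neural retinal genes were lower in labelled knockouts for nearly every cell class. Of 30 rod genes 25 fell (19 without replicate 1, median -2.53). Samd7, a repressor that maintains rod identity, had 50.6 and 47.3 CPM in wild types and 6.09 and 10.5 CPM in labelled knockouts (-2.57 ± 0.28). Recoverin (Rcvrn) had 15.3 and 17.3 against 1.08 and 3.03 CPM (-3.00 ± 0.43). The median over the rod list was -3.40 without replicate 2 and -1.99 without replicate 1, and replicate 1 was the lower in both genes. Of 14 cone genes 7 fell (4 without replicate 1, median -1.88), and the short-wave opsin Opn1sw had 51.1 and 57.9 CPM against 5.62 and 14.8 CPM (-2.42 ± 0.55). Gngt2 fell by 2.42 (SE 0.35) and Gnat2 by 2.17 (SE 0.36). The cone thyroid receptor Thrb had 14.5 and 16.3 against 13.4 and 13.9 CPM (-0.17 ± 0.16) and did not pass.

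Regulators of photoreceptor fate fell in 8 of 11 members (6 without replicate 1). Crx, which drives photoreceptor genes, had 283 and 334 CPM in wild types and 29.3 and 85.1 CPM in labelled knockouts (-2.43 ± 0.47), Nrl of rods had 293.3 and 352 against 20.0 and 69.8 CPM (-2.84 ± 0.64) and Otx2 had 307 and 396 against 53.0 and 121 CPM (-2.02 ± 0.38). Both labelled knockouts were lower in all 3, with replicate 1 the lowest. The 1 member that rose was Mef2c (16.1 and 21.1 against 43.0 and 59.1 CPM, 1.45 ± 0.23), which muscle and endothelium also express. Of 34 genes of phototransduction and the visual cycle 19 fell (12 without replicate 1).

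Inner retinal neurons showed the same direction. Of 19 amacrine and horizontal cell genes 13 fell (10 without replicate 1, median -1.81). Calretinin (Calb2) went from 79.7 and 87.3 to 11.9 and 18.8 CPM (-2.44 ± 0.25), and the GABA-making enzyme Gad2 from 24.5 and 22.3 to 5.16 and 7.53 CPM (-1.88 ± 0.25). Of 20 ganglion cell genes 15 fell and 1 rose (13 and 1 without replicate 1, median -1.77). Gamma-synuclein (Sncg) went from 46.6 and 39.6 to 9.32 and 11.8 CPM (-2.03 ± 0.19), and the neurofilament Nefl from 174 and 242 to 42.5 and 54.7 CPM (-2.10 ± 0.24). Irx2, which rose (1.97 ± 0.34), is also expressed in epithelium. Of 16 bipolar genes 6 fell (2 without replicate 1). Bipolar genes of later life were low in all libraries, as with Cabp5 (2.87 and 2.81 against 0.347 and 1.96 CPM). Of 32 synaptic genes 26 fell and 0 rose (20 and 0 without replicate 1, median -1.59). Complexin 1 (Cplx1) had 32.7 and 42.0 against 9.98 and 11.8 CPM (-1.78 ± 0.19), and the glycine receptor subunit Glra2 had 12.1 and 13.2 against 1.93 and 2.72 CPM (-2.45 ± 0.27).

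Retinal progenitor genes fell in 18 of 23 members (15 without replicate 1, median -1.98). Rax, which specifies the eye field, had 390 and 481 CPM in wild types and 62.05 and 93.5 CPM in labelled knockouts (-2.49 ± 0.28). Fgf15 went from 67.8 and 70.2 to 11.7 and 16.8 CPM (-2.28 ± 0.22), and the Notch target Hes5 from 211 and 221 to 39.2 and 60.4 CPM (-2.12 ± 0.24). Ccnd1, the cyclin of retinal division, had 1696 and 1838 CPM in wild types, 590 CPM in replicate 1 and 1153 CPM in replicate 2 (-1.02 ± 0.43, adjusted p = 0.131) and did not pass. Genes of mitosis and DNA replication, which every dividing cell uses, had 1 of 29 below and 0 above by the test, a median of -0.20 and E2f1 as the gene that fell (-0.94 ± 0.23). Without replicate 1 none of them passed, and 4 were lower in the fit of the newborn libraries alone. Among genes that passed the test, those with the largest fall in mean CPM included the brain creatine kinase Ckb (3140 and 3982 against 603 and 1060 CPM, -2.10 ± 0.43), the imprinted proteolipid Nnat (1077 and 1176 against 177 and 277 CPM, -2.31 ± 0.41) and the neuronal tubulin Tubb3 (681 and 820 against 139 and 197 CPM, -2.16 ± 0.26). Hes6 fell by 2.10 (SE 0.25), Sbk1 by 1.76 (SE 0.28), Tuba1a by 1.50 (SE 0.32), Pcbp4 by 1.32 (SE 0.28), Tubb2b by 1.22 (SE 0.23) and Sox4 by 0.99 (SE 0.28).

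Lists of pigment cells, glia, the optic cup rim, cornea and hair each held members that passed and members that did not. Over all genes tested 14.6% were higher and 9.38% lower. The shares higher were 16.7% for Müller glia, 20% for melanocytes and 10% for the optic cup rim, near that of all genes. The shares lower in those lists were 25%, 0% and 20%, each from 3 genes or fewer. Of 11 pigment epithelium genes 2 fell and 0 rose (median -0.19). These were Rrh (12.1 and 15.1 against 5.05 and 5.93 CPM, -1.31 ± 0.20) and Otx2, which photoreceptors share. Mitf, the pigment cell factor, had 19.8 and 20.9 against 22.1 and 26.2 CPM (0.25 ± 0.17), and Rdh5 had 47.3 and 61.96 against 46.1 and 49.8 CPM (-0.19 ± 0.22). Of 10 melanocyte genes 2 rose (Sox10 and Ednrb, 0.61 ± 0.16), 1 of them without replicate 1, and Dct had 421 and 542 against 462 and 452 CPM (-0.07 ± 0.28). Müller glia genes went both ways, 2 up and 3 down of 12 (1 and 1 without replicate 1), with Car2 (-1.93 ± 0.27) and Rlbp1 (-1.33 ± 0.24) lower and the water channel Aqp4 higher (2.17 ± 0.44). The optic cup rim list had 1 of 10 genes higher and 2, Optc and Zic2, lower (1 and 2 without replicate 1). Zic2 fell by 1.47 (SE 0.24) and Otx1 rose by 1.87 (SE 0.32). The list for corneal epithelium and stroma had 3 of 10 genes higher and 1 lower (2 and 0 without replicate 1). The lower one was Pax6, which is also on the retinal progenitor list. Bulk RNA of whole eyes with eyelids does not place these reads in the cornea. Aqp3 went from 35.8 and 51.7 to 449 and 369 CPM (3.22 ± 0.37) and lumican (Lum) from 116 and 153 to 398 and 293.7 CPM (1.37 ± 0.25). The cornea-specific keratin Krt12 (16.3, 34.4, 8.94 and 20.2 CPM) and the stromal Kera (57.0, 67.9, 71.1 and 55.2 CPM) did not pass. Hair follicle genes fell in 5 of 24 members (0 without replicate 1), led by Krt73 (16.5 and 45.7 against 8.20 and 7.93 CPM, -1.95 ± 0.44), with wild-type replicate 2 above replicate 1. Without wild-type replicate 2 the median of that list was -0.64 in place of -1.91.

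In several signalling families members moved in opposite directions. Among neurogenic factors and Notch genes 15 of 24 fell and 4 rose (12 and 4 without replicate 1). The ligand Dll3 of neural precursors went from 65.1 and 74.3 to 9.21 and 18.8 CPM (-2.31 ± 0.34), whereas Jag2, a ligand of epithelium, went from 46.1 and 72.0 to 184 and 146 CPM (1.49 ± 0.25). Notch3 of pericytes rose by 1.86 ± 0.28, Notch2 by 1.34 ± 0.17 and Jag1 by 0.94 ± 0.21, and Notch1 did not pass (-0.14 ± 0.25). Among fibroblast growth factors and receptors 7 of 21 rose and 5 fell (3 each without replicate 1). Fgf7, which mesenchyme sends to epithelium, went from 1.27 and 1.55 to 5.39 and 7.26 CPM (2.16 ± 0.35) and Fgf1 rose by 1.32 ± 0.17. Fgf12, which acts inside neurons, fell by 1.56 (SE 0.20), and Fgf9 of the early retina fell by 1.33 (SE 0.28).

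In the retinoic acid pathway 7 of 21 rose and 3 fell (4 and 1 without replicate 1). The synthesizing enzyme Aldh1a3 went from 36.1 and 37.4 to 196 and 166 CPM (2.30 ± 0.21), the carrier Crabp2 from 12.3 and 14.1 to 50.0 and 46.7 CPM (1.87 ± 0.18) and the receptor Rarg rose by 1.79 ± 0.33. The degrading enzymes differed: Cyp26b1 rose (1.63 ± 0.23), while Cyp26a1 (-1.52 ± 0.37) and Cyp26c1 (-1.69 ± 0.44) fell. Aldh1a1 of lens and dorsal retina had 166 and 182 CPM in wild types, 22.0 CPM in replicate 1 and 116 CPM in replicate 2 and did not pass. In the Wnt pathway 12 of 32 rose and 2 fell (4 and 1 without replicate 1). Wnt4 went from 15.2 and 21.8 to 89.8 and 59.8 CPM (2.01 ± 0.38) and the receptor Lgr6 of epithelial stem cells from 3.53 and 5.11 to 21.8 and 19.9 CPM (2.27 ± 0.29). The secreted inhibitor Notum went from 17.2 and 21.4 to 3.89 and 3.52 CPM (-2.38 ± 0.29), and the receptor Fzd5 of the retina from 175 and 210 to 74.2 and 96.7 CPM (-1.17 ± 0.23). BMP genes rose in 4 of 21 members (1 without replicate 1), which is 19.0% and near the 14.6% of all genes tested. Bmp6 was among them (0.84 ± 0.18), and Bmp4 did not pass (0.11 ± 0.23).

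**Figure D4:**
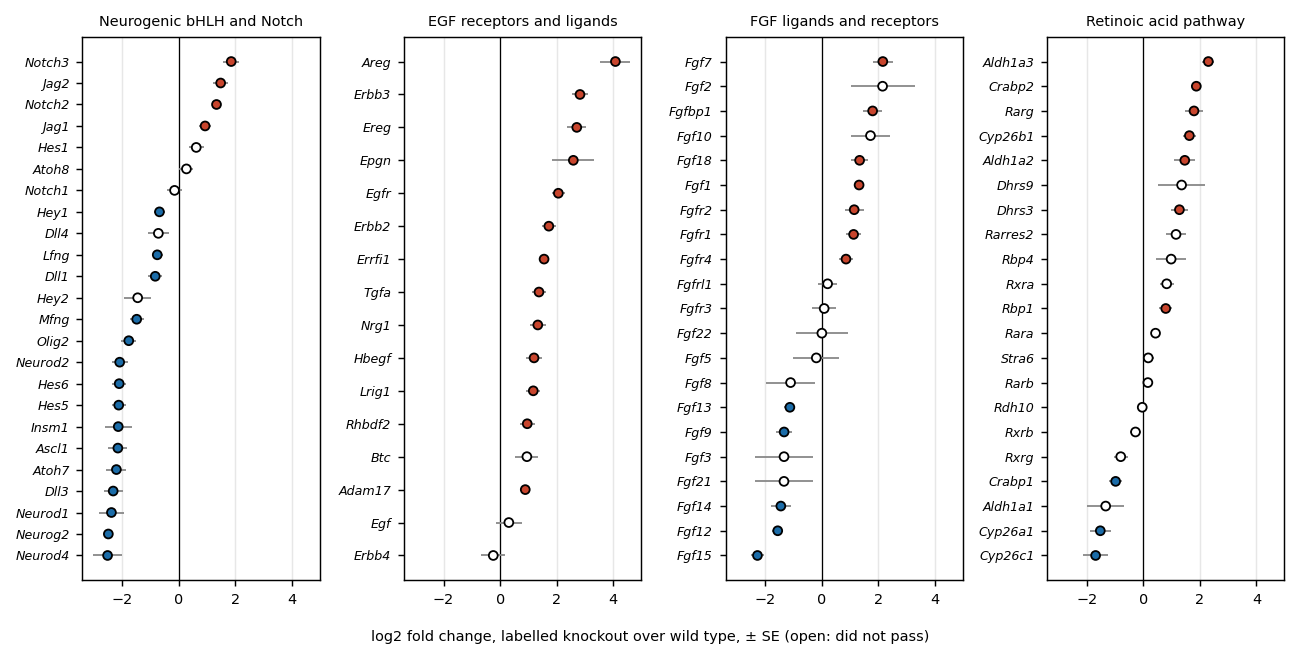
Log2 fold change of labelled knockout over wild type with its SE for every tested member of 4 gene lists, red where the gene rose, blue where it fell and open where it did not pass. Epidermal growth factor genes lie right of 0 apart from Erbb4, and the other 3 lists hold members on both sides.

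Stress, clock and housekeeping groups had few calls or calls in both directions. Of 19 heat shock and unfolded protein genes 3 rose (2 without replicate 1), which is 15.8% and near the 14.6% of all genes tested. Hspa1b, an inducible chaperone with the near-identical copy Hspa1a, had 42.7 and 56.2 CPM in wild types and 405 and 264 CPM in labelled knockouts (2.76 ± 0.30). The chaperone genes Hsp90aa1 (310 and 311 against 144 and 227 CPM, -0.74 ± 0.26) and Dnajb1 (117 and 141 against 119 and 146 CPM, 0.04 ± 0.26) did not pass. The log2 fold change was above 0 in 14 of the 19 genes. Of 16 metallothionein and oxidative stress genes 4 rose and 1 fell (2 and 0 without replicate 1). The metal-binding Mt1 (18.9 and 21.3 against 52.9 and 54.4 CPM, 1.42 ± 0.17) and Mt2 (1.88 ± 0.23) rose, and Mt3 of neural tissue did not pass (-0.69 ± 0.24). Of 23 clock and glucocorticoid-responsive genes 7 rose and 1 fell (5 and 1 without replicate 1). Arntl, the activator of the clock, fell from 55.8 and 57.4 to 18.7 and 26.3 CPM (-1.33 ± 0.21), while its repressors Per3 (14.3 and 16.3 against 29.5 and 29.6 CPM, 0.95 ± 0.16) and Per2 (1.09 ± 0.21) rose along with Bhlhe40 (1.98 ± 0.23). The labels give no hour of collection. Of 22 hypoxia and glycolysis genes 4 rose and 4 fell (1 and 0 without replicate 1), with the vessel peptide Adm at 2.36 ± 0.36 and Ndrg1 at -1.26 ± 0.37. None of 57 cytosolic ribosomal protein genes passed (median 0.18).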

How the data were processed

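RNA-seq libraries of poly(A)+ RNA were made from whole eyes with eyelids, with 18 PCR cycles and no strand marking per the labels' protocols. The authors deposited for each library the read count per RefSeq transcript (raw, whole numbers) and an RPKM value. The RPKM values deposited by the authors equal those counts divided by exon length and by 1 library total per file. The submitters' processing notes name CASAVA 1.8, Bowtie 0.12.9, TopHat2 2.0.11, SAMtools and build mm8. The counter and the handling of reads shared by near-identical genes (such as Krt6a and Krt6b, Sprr2, the crystallins and the globins) are not given in the sources used here.

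Of 24373 transcripts, the one with the highest mean count was kept for each of 20418 symbols. The 4 newborn and 3 adult libraries were fitted together with edgeR 4.0.16 (R 4.3.3, TMM scaling, filterByExpr, quasi-likelihood test). P-values were adjusted by Benjamini-Hochberg over all 17592 genes tested, with a threshold of 0.05, and SE is the log2 fold change over the square root of F. RPKM served only for minimums. DESeq2 1.42.0 was an alternative, along with other scalings, filters, left-out libraries, a replicate block and other choices of transcript. Replicate numbers do not pair the libraries in the labels, and the deviations of same-numbered libraries correlated at 0.116 over genes, with 2 pairs only.

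Members and lists were chosen with earlier results of these data known. Named genes are the up to 15 per direction with the widest gap between groups (at least 1 RPKM in the higher group), the 10 per direction with the largest difference in CPM, the 10 per direction with the largest ratio between the labelled knockouts (at least 10 RPKM), and up to 4 per list with the smallest p. Egr1, Cryaa, Lor and Krt10 were named besides. Other members of the lists that the text names, such as Jag2, Erbb4, Col1a1, Fos and Cyp26c1, and the promoters printed, were chosen after their values were seen. Genes known only by an ID were left out. A few named genes are not reported here.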

Additional observations from a re-analysis of the deposited data

Results flagged for a closer look

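For 17 of the genes named above by gap or by amount, the edgeR interaction test of adult against newborn eyes passed, as it did for 492 of 17592 genes (2.80%). The adult wild type is 1 library and is assumed to vary like the other groups, and these genes were chosen for large newborn differences, so the values describe these libraries and do not establish a difference by age. The values below are the adult log2 fold change minus the newborn one. Among genes higher in newborn labelled knockouts the difference was -7.94 for Psca, -6.48 for Clca4, -5.05 for Prss27, -4.72 for Nccrp1, -3.94 for Krt6b, -3.51 for Krt6a, -3.45 for Ltf, -3.28 for Dsg3, -2.99 for Ceacam1 and -2.86 for Dlk1. Among genes lower in newborn labelled knockouts it was 2.87 for Ttc9b, 2.85 for Neurog2, 2.67 for Scg5, 2.58 for Stmn3, 2.50 for Samd7, 2.42 for Tubb3 and 2.01 for Hes6. The adult log2 fold changes of these genes ran from -0.40 for Dlk1 to 1.35 for Ltf, with 0.91 for Ceacam1, 0.77 for Clca4, 0.74 for Krt6a and 0.68 for Krt6b. By edgeR, 0 genes differed in this way without either newborn wild type (2600 at an unadjusted p under 0.05 without replicate 1 and 3377 without replicate 2), and DESeq2 called 2131 with all libraries.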

How the results depend on the processing

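The count of genes higher in labelled knockouts ran from 0 to 2330 when 1 newborn library was left out (edgeR) and that of genes lower from 0 to 1409, both ends at 0 being the fit without wild-type replicate 1. That fit leaves 1 wild type, which is assumed to vary like the other groups. In a choice made after seeing the data, DESeq2 without 1 library called 1555 to 2363 higher and 1015 to 1776 lower (1555 and 1065 without labelled-knockout replicate 1). With the authors' library totals 1084 genes were lower. With a replicate block, for numbers that the labels do not pair, 1932 were higher and 1330 lower. The interaction of label and age passed in 492 genes, in 2131 by DESeq2, and in 0 to 1346 when 1 newborn library was left out. All other scalings, filters, transcript choices and the newborn libraries alone kept both counts within 1.5 times. The cause of these shifts was not tested.

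No gene named in the text that passed the test changed sign. Some that did not pass did when 1 newborn library was left out, and their log2 fold changes then ran for Bfsp1 from -7.28 to 0.19, for Bmp4 from -0.079 to 0.39, for Casp14 from -0.56 to 3.86, for Chrng from -2.08 to 0.58, for Ctsg from -0.24 to 0.65, for Dct from -0.21 to 0.13, for Dnajb1 from -0.086 to 0.20, for Dsc1 from -1.11 to 2.43, for Egf from -0.10 to 0.65, for Egr4 from -0.32 to 0.25. For the rest they ran for Erbb4 from -0.58 to 0.082, for Kera from -0.18 to 0.21, for Krt10 from -0.39 to 3.81, for Lor from -2.62 to 4.30, for Notch1 from -0.31 to 0.097, for Pkp2 from -0.026 to 0.34, for Rdh5 from -0.34 to 0.034, for Rptn from -2.06 to 4.63, for Sox1 from -4.29 to 0.38. Kera was at -0.022 with size factors, -0.022 with DESeq2, -0.041 with the 5 RPKM filter and -0.033 with newborn libraries alone. Dnajb1 was at -0.019 with that filter and -0.011 with newborn libraries alone. With the authors' totals Dct was at 0.065 and Egr4 at 0.085.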

Other observations

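Of 14 clade B serpins, intracellular protease inhibitors of epithelium and leukocytes, 10 rose (8 without replicate 1), with Serpinb1a at 6.56 and 7.31 CPM in wild types against 24.6 and 22.1 CPM in labelled knockouts (1.75 ± 0.18). Of 20 antimicrobial genes 7 rose (4 without replicate 1). Pglyrp1, which binds bacterial cell walls, had 5.24 and 5.06 CPM against 189 and 37.6 CPM (4.46 ± 0.74), with replicate 1 far above replicate 2. Of 12 cartilage and bone genes 4 rose (2 without replicate 1), with Runx2, the bone regulator, at 8.87 and 7.76 against 22.2 and 15.7 CPM (1.19 ± 0.23).

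Other lists had few calls or calls near the shares over all genes tested (14.6% higher and 9.38% lower). Of 11 erythroid genes 1 rose (0 without replicate 1), the haem enzyme Alas2 (14.9 and 20.1 against 59.1 and 57.7 CPM, 1.74 ± 0.41). Of 11 Langerhans and dendritic cell genes 1 rose (1 without replicate 1), Epcam (17.5 and 22.5 against 165 and 136 CPM, 2.91 ± 0.26), which epithelium shares, while the class II gene H2-Aa did not pass (1.54 ± 0.63). Of 14 meibomian and sebaceous gland genes 2 rose and 1 fell (0 and 1 without replicate 1), with the triglyceride enzyme Dgat2 at 1.36 ± 0.27. Those are 14.3% and 7.14%, near the shares over all genes. Of 10 adipocyte genes 1 rose (0 without replicate 1), Cidea (1.22 ± 0.35).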
